A study of Mus musculus with 25 samples.

Results

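The genes of the proteasome, the protease complex that degrades most unneeded proteins of a cell, were measured in CD8+ T cells taken from tumours. Of the 23366 gene symbols in the table, 44 begin with Psma, Psmb, Psmc, Psmd or Psme and a digit, and the 42 with a value of at least 1 in at least 3 libraries were kept. They comprise 7 alpha and 7 beta genes of the constitutive core, the 3 interferon-inducible beta genes Psmb8, Psmb9 and Psmb10 (the immunoproteasome), 6 ATPases and 11 non-ATPases of the regulatory particle, 4 activator genes and 3 chaperones of base assembly (Psmd5, Psmd9 and Psmd10). The last symbol kept, Psmc3ip, matches the pattern only by its name: it encodes a meiotic recombination cofactor and is counted apart. The 2 symbols left out were Psma8, a testis-specific alpha subunit listed at 0 in every library but a wild-type one at 0.22, and Psmb11, the beta subunit of thymic epithelium, at 0.3 to 1.03.

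The core of the proteasome is a barrel in which rings of alpha subunits gate the channel and rings of beta subunits enclose the proteolytic sites. The subunits encoded by Psmb5, Psmb6 and Psmb7 carry the chymotrypsin-like, caspase-like and trypsin-like activities, and in lymphocytes and cells exposed to interferon gamma they are replaced in new particles by the products of Psmb8, Psmb9 and Psmb10. Such particles cut peptides that suit MHC class I molecules. The regulatory particle recognises ubiquitin-tagged proteins, unfolds them with its ATPase ring and feeds them to the core, and the activator PA28, made of the products of Psme1 and Psme2, opens the core without ATP and is also induced by interferon. Activated T cells are known for high proteasome levels and for mixed and immune particles.

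The cells were CD8+ T lymphocytes from B16F10 melanomas grown in C57BL/6 mice, profiled as small bulk lysates by an adapted SMART-Seq 2 protocol, a full-length cDNA method for little RNA. Of the 25 libraries, 3 came from conditional double knockouts of Prdm1 and c-Maf (Prdm1/c-Maf cDKO). Another 3 came from the conditional knockout of Prdm1 alone (Prdm1 cKO), 3 from that of c-Maf alone (c-Maf cKO), and the remaining 16 from wild type. Prdm1 encodes the repressor Blimp-1 and Maf the transcription factor c-Maf, both known as drivers of inhibitory receptor expression in exhausted T cells. The labels used here do not name the Cre line, the age of the mice or a batch, and do not say that each library is a separate mouse, so each p-value measures only the spread between these libraries. In bulk RNA, fewer cells of a type and less RNA per cell cannot be told apart.

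All values are the authors' normalised signal, whose scale the sources used here do not state; the sequencing depth is therefore unknown. Low values were smaller for genes with longer transcripts, so levels of different genes were compared as values per length. Libraries are named by the letter and number in their column names, and the columns run in 3 sets: 3 Prdm1 cKO with 7 wild-type libraries (set 1), 3 c-Maf cKO with 4 (set 2) and 3 cDKO with 5 (set 3). Column totals ran from 389650 to 475956. Prdm1 averaged 3.05 ± 1.77 in cDKO and 2.93 ± 2.24 in Prdm1 cKO libraries, against 15.5 ± 5.31 in wild type (SD, n = 3, 3 and 16). Maf was near 0 in all groups (cDKO 0.07 ± 0.0964, Prdm1 cKO 0.833 ± 0.369, c-Maf cKO 0.31 ± 0.537 and wild type 0.462 ± 0.3), and the library labelled c-Maf cKO C1, at 0.93, lay within the wild-type range of 0.03 to 0.95. The directions given for the c-Maf cKO group rest on that label. The CD8 T cell markers were present throughout: none of 8 was at 0 in all libraries of a group. The cDKO libraries disagreed in the inducible genes, and 1 wild-type library was low in the proteasome genes. In cDKO library C2 the 5 interferon-inducible genes (Psmb8, Psmb9, Psmb10, Psme1 and Psme2) lay a median of 0.37 above the wild-type mean on the log2 scale. That value is within the wild-type range of -1.11 to 0.66. In A1 and A2 they lay at -1.16 and -0.88, with A1 below that range. Wild-type library B3 was low in the same genes (-1.11) and in the core (-0.43). It also had the lowest column total and the lowest summed level of the CD8 T cell markers, 1200 against a wild-type median of 2562.

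Promoter sequences are shown for the genes on which the results turn: Psmb5 and Psmb6, constitutive catalytic genes that fell in cDKO, and Psmb8 and Psmb9, inducible genes that varied together. They are the 250 bases before each start in RefSeq's annotation of build GRCm38.p6 (the data were aligned to mm9, and no coordinate was carried between builds), written 5′ to 3′ on the gene's strand, and 36 of the 42 genes had an entry. Psmb9 and the peptide transporter gene Tap1 are transcribed away from each other, and the whole stretch of 225 bases between their starts is given once, on the Psmb9 strand. Capitals mark a match to the antioxidant response element TGACNNNGC in Psmb5 and Psmb6, to the gamma-activated sequence TTCNNNGAA in Psmb8, and to CCAAT on the opposite strand between Psmb9 and Tap1.
Psmb5 (chr14:54617996-54618245, minus strand): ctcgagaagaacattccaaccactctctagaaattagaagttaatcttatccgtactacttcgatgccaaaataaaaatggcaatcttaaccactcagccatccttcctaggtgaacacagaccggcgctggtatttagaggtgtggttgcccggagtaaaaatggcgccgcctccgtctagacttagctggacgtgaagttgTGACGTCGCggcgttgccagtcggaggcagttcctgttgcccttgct
Psmb6 (chr11:70525107-70525356, plus strand): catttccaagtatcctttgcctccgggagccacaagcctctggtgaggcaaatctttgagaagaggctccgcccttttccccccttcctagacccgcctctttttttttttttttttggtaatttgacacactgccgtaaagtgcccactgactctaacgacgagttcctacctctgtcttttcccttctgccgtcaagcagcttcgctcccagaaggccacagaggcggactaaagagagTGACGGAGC
Psmb8 (chr17:34197945-34198194, plus strand): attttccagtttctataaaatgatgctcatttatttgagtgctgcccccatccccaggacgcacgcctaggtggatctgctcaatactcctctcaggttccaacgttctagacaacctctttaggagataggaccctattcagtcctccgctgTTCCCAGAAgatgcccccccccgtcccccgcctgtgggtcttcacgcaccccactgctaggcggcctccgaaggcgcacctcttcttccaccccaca
Psmb9 and Tap1 (chr17:34187331-34187555, minus strand): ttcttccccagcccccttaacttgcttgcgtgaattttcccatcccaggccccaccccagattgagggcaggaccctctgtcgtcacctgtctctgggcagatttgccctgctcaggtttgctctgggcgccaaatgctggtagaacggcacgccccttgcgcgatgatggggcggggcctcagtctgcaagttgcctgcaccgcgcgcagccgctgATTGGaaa

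The match TGACGTCGC in Psmb5 lies 47 to 39 bases before the start, TGACGGAGC in Psmb6 lies 9 to 1 bases before it, and TTCCCAGAA in Psmb8 lies 97 to 89 bases before it. The antioxidant response element, bound by the Cap'n'collar factors NRF1 and NRF2, occurred in the windows of 2 of 11 core genes (Psmb5 and Psmb6) and 2 of 14 regulatory particle genes (Psmc6 and Psmd12) and 1 of 3 chaperone genes (Psmd9), against 10.1% of 27025 promoters on both strands. The gamma-activated sequence was found in 1 of 3 inducible catalytic genes, against 7.18% of all promoters. It was in 0 of 4 activators (Psme1 and Psme2 among them), 0 of 11 core, 0 of 14 regulatory particle and 0 of 3 chaperone genes. CCAAT, the NF-Y motif, was in 6 of 11 core, 4 of 14 regulatory particle, 1 of 4 activator, 1 of 3 inducible and 1 of 3 chaperone windows, against 34.5% of all. The core of the Blimp-1 motif, AGNGAAAG, matched in Psma1 and Psmd10 alone among the genes with an entry, against 7.23% of all promoters. These are matches of letters in short windows, not binding data.

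In wild-type cells the inducible gene Psmb8 stood at the top of the family, while Psmb9 and Psmb10 did not. Psmb8 had the highest mean of the 42 genes, 396 ± 121 (SD, n = 16), followed by the PA28 genes Psme1 at 246 ± 54.3 and Psme2 at 242 ± 56.2. Its constitutive counterpart Psmb5 averaged 149 ± 22.2. Psmb9 (170 ± 59.8) and Psmb6 (163 ± 26.8) were close to each other, as were Psmb10 (68.5 ± 20.2) and Psmb7 (73.7 ± 9.32), each pair differing by less than 1 SD. Gene means ran from 96.8 to 232 among the alpha genes, from 73.7 to 241 among the constitutive beta genes, from 49.6 to 95.9 among the ATPases and from 37.1 to 116 among the non-ATPases. The 3 chaperones lay between 12.2 and 21.2. Psme3, the nuclear activator PA28 gamma, averaged 18.2 ± 9, and Psme4, which encodes the activator PA200, had the lowest mean at 2.64 ± 0.898.

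The 3 inducible catalytic genes varied widely between wild-type libraries. Their coefficients of variation had a median of 30.5%, close to the 28.6% of the 4 activators, against 17.2% for the chaperones, 16.6% for the alpha genes, 15% for the constitutive beta genes, 13.9% for the ATPases and 14.8% for the non-ATPases. The median over the 4887 genes with a wild-type mean of at least 10 was 21.5%, above the median of each core and regulatory class, although Psma4 reached 22.2%. Part of this spread followed the column sets: Psmb8 averaged 328 ± 79.4 in the 7 wild-type libraries of set 1, 529 ± 50.4 in the 4 of set 2 and 385 ± 132 in the 5 of set 3, and Psmb9 averaged 137 ± 38, 239 ± 22.3 and 160 ± 64.1. Wild-type Psmb5 averaged 148 ± 20.9, 169 ± 11.9 and 133 ± 19.2 in the same sets.

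The inducible genes moved together from library to library. Over the 16 wild-type libraries Psmb8 and Psmb9 gave Pearson's r = 0.959 and Spearman's rho = 0.953 on the log2 scale (permutation p = 1.0e-05 for each, the smallest that the permutations can give; adjusted p = 2e-05 and 4e-05 over the 4 relations computed). Without A3 and B3, the libraries farthest from the median of Psmb8, r was 0.925. It was 0.824 in the 7 libraries of letter A and 0.991 in the 9 of letter B. Psmb9 and Tap1, which share the promoter region shown above, gave r = 0.944 and rho = 0.885 (permutation p = 1.0e-05 and 3e-05). Their r was 0.822 within letter A and 0.968 within letter B, and rho within letter A was 0.714 (permutation p = 0.0881). Psme1 and Psme2 gave r = 0.86 and rho = 0.768 (permutation p = 0.00011 and 0.00063). Their r was only 0.17 in the 7 libraries of letter A (permutation p = 0.729) and 0.963 in the 9 of letter B (permutation p = 0.000554). The constitutive Psmb5 and the inducible Psmb8 gave lower values (r = 0.539, permutation p = 0.0312; rho = 0.618, permutation p = 0.0123), and r without B3 and B6 was 0.499 (permutation p = 0.069). It was 0.231 in the 7 libraries of letter A (permutation p = 0.607) and 0.734 in the 9 of letter B (permutation p = 0.0168). As a description, the median r was 0.87 over the 10 pairs among the 5 inducible genes, 0.68 over the 91 pairs of constitutive core genes, 0.66 over the 70 pairs of a core with an inducible gene, 0.56 over the 238 pairs of a core with a regulatory particle gene, 0.48 over the 136 pairs of the regulatory particle and 0 over all pairs of genes tested. The 9 libraries of letter B stand in column sets 2 and 3, so the split by letter leaves that difference in. In set 1, A3, A4, A7, A8 and A10 had CD8 T cell marker sums of 1660 to 2070 and Psmb8 from 245.45 to 315.56. A11 and A12 had sums of 2600 and 2520 and Psmb8 at 457.85 and 419.76. B3 had the lowest sum, 1200, and B4 the highest, 3410, with Psmb8 at 170.58 and 471.51. The part of the marker level in these correlations was not tested. All these libraries share the same normalisation.

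**Figure D1:**
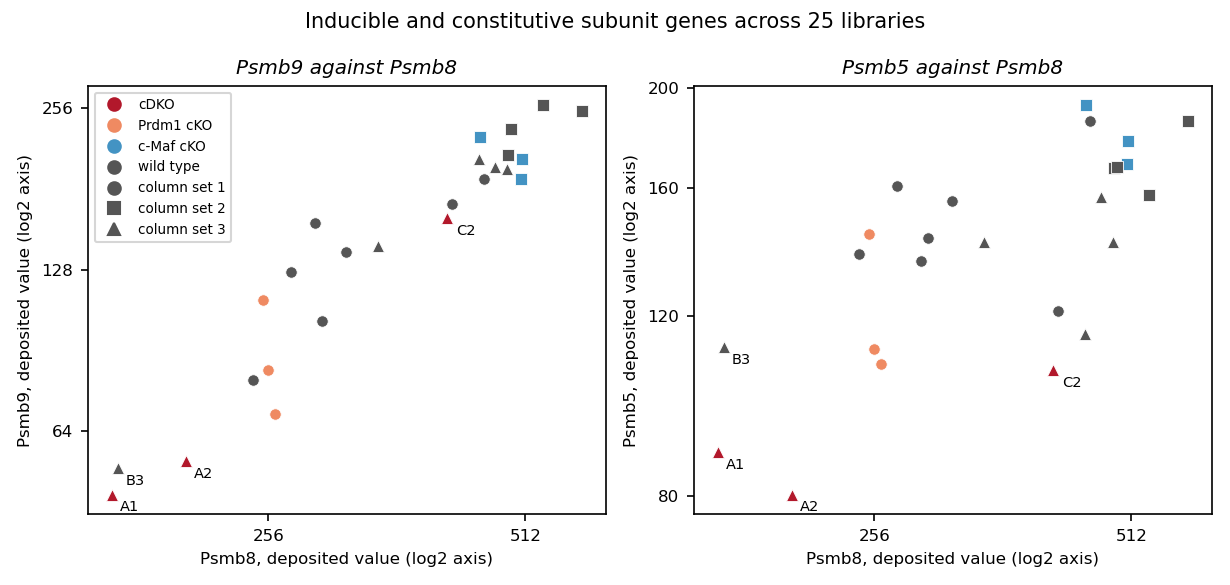
Inducible and constitutive subunit genes in the 25 libraries, on log2 axes of the deposited value. Colours mark the groups (cDKO, Prdm1 cKO, c-Maf cKO, wild type) and symbols the column sets. Left, Psmb9 against Psmb8: A1 and A2 of cDKO and B3 of wild type lie at the low end and C2 of cDKO lies among the wild-type libraries. Right, Psmb5 against Psmb8: the 3 cDKO libraries, C2 included, have the lowest Psmb5 values (80.31 to 106.23) with Psmb8 from 167.77 to 414.97.

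The conditional double knockout of Prdm1 and c-Maf went with lower transcript levels of the core and the regulatory particle. In cDKO against wild-type libraries, 16 of the 42 genes fell and 0 rose (limma, adjusted p under 0.05 over 12251 genes), where 6.85% of all genes tested fell, 5.09% rose and 11.9% were called in either direction. The median log2 fold change was -0.42 for the 42 genes, against -0.03 for all genes tested; when libraries were rescaled to their CD3 genes these medians were 0.01 and 0.31, and 0 of the 42 genes passed. On the deposited scale fold changes lay below 0 for 41 of 42 genes, and for 52.6% of all genes. After rescaling to the CD3 genes 20 of the 42 lay below 0, where the median of all genes was 0.31. By class, 5 of 7 alpha genes fell (median -0.50), 4 of 7 constitutive beta genes (-0.51), 3 of 6 ATPases (-0.37) and 4 of 11 non-ATPases (-0.38). None of the 3 inducible genes (median -0.63), 4 activators (-0.12) or 3 chaperones (-0.15) passed by limma, although 2, 1 and 1 of them had an unadjusted p under 0.05, as did 24.8% of all genes.

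The constitutive catalytic genes all fell. Psmb5, the chymotrypsin-like subunit, had values of 106.23, 88.28 and 80.31 in cDKO libraries C2, A1 and A2, against 111.81 to 185.69 with a median of 149.02 in the 16 wild-type libraries. All 3 cDKO values lie below the lowest wild-type library, B3. The fitted log2 fold change was -0.69 ± 0.14 (SE; limma, adjusted p = 0.0016). Psmb6, the caspase-like subunit, had 106.72, 125.11 and 78.6 in cDKO against 120.1 to 229.75 (median 163.19) in wild type, so that C2 and A2 lie below all wild-type libraries and A1 overlaps the lowest. Its log2 fold change was -0.66 ± 0.14 (limma, adjusted p = 0.00319). Psmb7, the trypsin-like subunit, had 44.55, 63.87 and 39.63 in cDKO against 60.09 to 88.57 (median 71.06) in wild type, again with A1 inside the wild-type range and the other two below it (log2 fold change -0.59 ± 0.13; limma, adjusted p = 0.00393). Each of the 3 also passed with column set in the model: the log2 fold changes were then -0.54, -0.44 and -0.40 (limma, adjusted p = 0.0189, 0.0368 and 0.0499), Psmb7 by a narrow margin. Psmb6 and Psmb7 did not pass without A2.

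**Figure D2:**
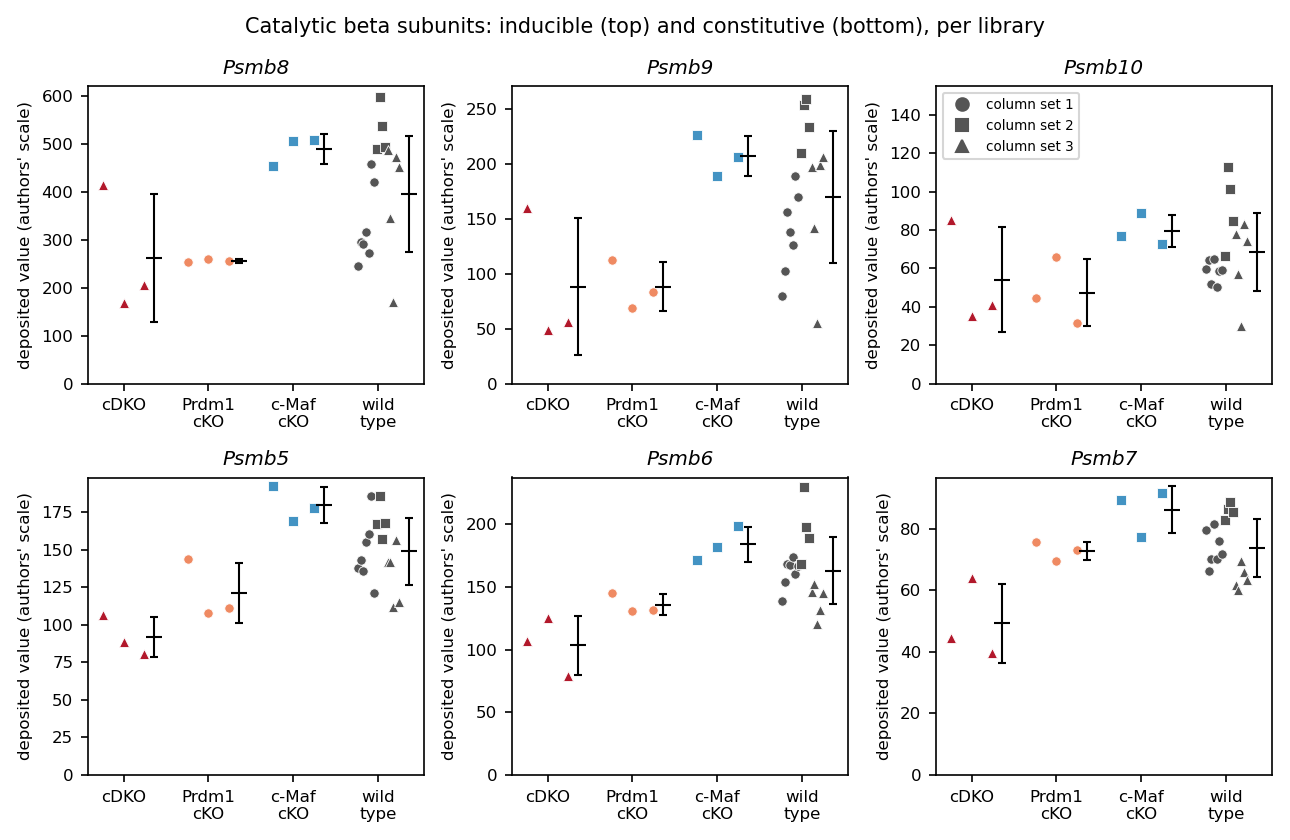
Deposited normalised values of the inducible (top) and constitutive (bottom) catalytic subunit genes in each library, for cDKO, Prdm1 cKO, c-Maf cKO and wild type. Symbols mark the column set, and the bars beside each group show its mean and SD. The cDKO libraries have the lowest mean Psmb5, Psmb6 and Psmb7 (91.6, 103 and 49.3, against 149, 163 and 73.7 in wild type), whereas 1 cDKO library, C2, lies within or above the middle of the wild-type Psmb8 and Psmb10 values; after rescaling to the CD3 genes 0 proteasome genes passed.

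Among the other core genes, Psma1 and Psma4, structural subunits of the alpha ring, had the smallest adjusted p. Psma1 had 91.44, 81.13 and 86.04 in cDKO against 86.97 to 178.14 (median 139.44) in wild type. Library B3 alone of the 16 wild-type libraries lies among the cDKO values, and the log2 fold change was -0.65 ± 0.14 (limma, adjusted p = 0.00375). Psma4 had 67.66, 49.72 and 44.99 in cDKO against 61.26 to 140.4 (median 93.41) in wild type, where B3 again was the lowest library (log2 fold change -0.82 ± 0.18; limma, adjusted p = 0.00375). The other core genes that fell were Psma3, Psma6, Psma7 and Psmb3, with log2 fold changes of -0.50, -0.41, -0.60 and -0.51. Psma6 was 90.47 to 100.37 in cDKO and at least 103.41 in wild type, with no overlap, but its fold change was 0.02 after rescaling to the CD3 genes and it did not pass when any 1 of the 3 cDKO libraries was left out. The 5 core genes that did not pass (Psma2, Psma5, Psmb1, Psmb2 and Psmb4) had fold changes between -0.42 and -0.22.

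In the regulatory particle 7 of 17 genes fell. Psmd6, a lid subunit also known as Rpn7, had 45.18, 46.99 and 38.14 in cDKO against 50.11 to 80.54 (median 65.62) in wild type. No cDKO library reached the lowest wild-type value, and the log2 fold change was -0.58 ± 0.13 (limma, adjusted p = 0.00325). Psma6, Psmb5 and Psmd6 were the 3 of 42 genes with every cDKO library below every wild-type library, which held for 2.16% of all genes tested. Psmc1, an ATPase whose tail opens the core gate, had 25.8, 49.02 and 45.36 in cDKO, against 46.04 to 85.42 in wild type. Its lowest value is that of C2, and the log2 fold change was -0.72 ± 0.17 (limma, adjusted p = 0.00527), but it did not pass without C2 (-0.44; limma, adjusted p = 0.112). Psmd14, the lid deubiquitinase that removes ubiquitin chains from substrates, averaged 60.2 ± 12.9 in cDKO and 83.5 ± 9.06 in wild type (SD, n = 3 and 16; log2 fold change -0.48; limma, adjusted p = 0.00927), and did not pass without A1 (-0.30; limma, adjusted p = 0.188). With column set in the model none of the 7 passed. The others that fell were Psmc3 and Psmc4 of the ATPase ring (-0.43 for each), Psmd2, a scaffold of the base (-0.42, but 0.004 after rescaling to the CD3 genes), and Psmd11 of the lid (-0.46). At the other end Psmc6 (-0.13, adjusted p = 0.627) and the ubiquitin receptor Psmd4 (-0.06, adjusted p = 0.841) were the genes of the 2 classes closest to no difference by limma.

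**Figure D3:**
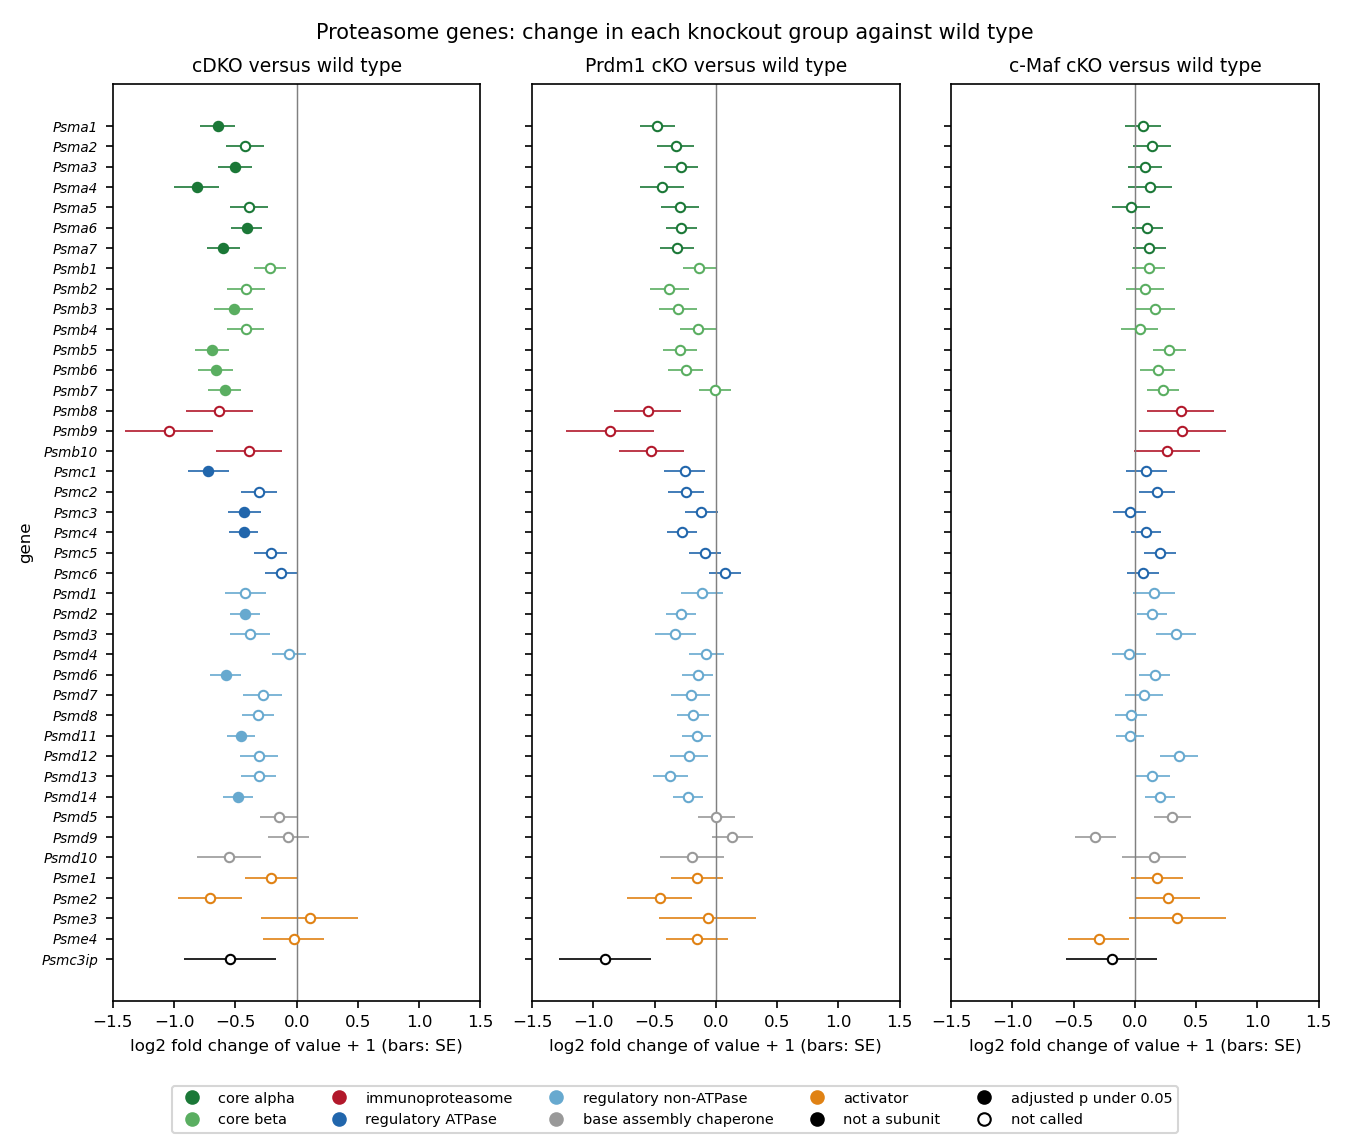
Fitted log2 fold change of value + 1 (horizontal axis, bars are SE) for the 42 genes, coloured by class, with 1 panel for each knockout set against wild type; filled points have an adjusted p under 0.05. The 16 filled points are all in the cDKO panel and all below 0. After rescaling to the CD3 genes none is filled, and the median of the 42 genes is 0.01 for cDKO (all genes 0.31), 0.23 for Prdm1 cKO (0.37) and -0.08 for c-Maf cKO (-0.18).

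Psmb9 had the largest fold change of the 42 genes in cDKO, but none of the inducible genes passed, and the 3 cDKO libraries disagreed in them. Psmb9 had 159.83, 48.71 and 56.18 in C2, A1 and A2, against 54.61 to 259.02 (median 179) in wild type. Its log2 fold change was -1.04 ± 0.36 (limma, adjusted p = 0.0601). Psmb8 had 414.97, 167.77 and 204.88 in cDKO against 170.58 to 597.11 (median 435.98) in wild type, with a log2 fold change of -0.63 ± 0.27 (limma, adjusted p = 0.144). Psmb10 had 85.35, 35.35 and 41.14 in cDKO against 30.21 to 112.83 (median 64.78) in wild type (log2 fold change -0.39 ± 0.27; limma, adjusted p = 0.402). In all 3 genes A1 and A2 lie near or below the bottom of the wild-type range and C2 within its upper part or near its middle. Both PA28 genes had the same order of libraries. Psme2 had 307.42, 90.39 and 106.03 in cDKO against 108.75 to 327.91 (median 241.9) in wild type (log2 fold change -0.71 ± 0.26; limma, adjusted p = 0.0791), and Psme1 had 336.54, 141.82 and 187.56 against 127.05 to 342.05 (median 252.62; log2 fold change -0.21 ± 0.21; limma, adjusted p = 0.615). Leaving out C2 gave log2 fold changes of -1.57 for Psmb9, -1.02 for Psmb8 and -1.26 for Psme2 (limma, adjusted p = 0.00977, 0.03 and 0.00161), whereas leaving out A1 gave -0.73, -0.37 and -0.38 (limma, adjusted p = 0.347, 0.574 and 0.518). Without wild-type B3 all 3 passed too. Library C2 had a summed CD8 T cell marker level of 2640, against 1430 in A1 and 1680 in A2, and an erythroid marker sum of 461, against 2270 and 4240. Melanoma markers summed to 97.8 in C2, against 1340 in A1 and 1120 in A2. In wild type they summed to 6.69 to 3116 (median 488), with the highest sum in B3. The part of these differences in the inducible genes was not tested. The letter of the library code differed too: C for C2, A for A1 and A2, and B for every wild-type library of set 3. No wild-type library has letter C.

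The size of the cDKO count depended on single libraries and on the scale. Without A2 the number of genes that fell was 4, without A1 it was 10, without C2 it was 15, without wild-type B3 it was 23, and without both C2 and B3 (an alternative added after the data were seen) it was 24. For these leave-out fits the share of all genes that fell is not reported here. The counts therefore do not tell whether proteasome genes in particular, or all genes, gained or lost calls. With column set in the model it was 6, all of them core genes (Psma1, Psma4, Psma7, Psmb5, Psmb6 and Psmb7), where 3.58% of all genes fell, and the median of the 42 genes was -0.27. After rescaling to the CD3 genes the 42 genes lay 0.30 below all genes in the median, against 0.39 on the deposited scale. The sum of 8 CD8 T cell markers was 1433 to 2642 in cDKO and 1197 to 3411 in wild type, with medians of 1684 and 2562. A1 and A2 had 1430 and 1680, and the part of this level in the result was not tested. Other values moved with the group too. Erythroid markers summed to 461.4 to 4240 in cDKO against 1.38 to 1568 in wild type, with 3 of 5 higher by limma, where 5.09% of all genes were. Macrophage markers summed to 153.5 to 237.6 against 52.68 to 2374. Fibroblast and endothelium markers summed to 11.24 to 18.31 against 3.35 to 13.93. The ribosomal RNA gene Rn45s held 15, 16.1 and 15.9% of the column total in C2, A1 and A2, against 10.4% to 17.3% in wild type, and its part in the result was not tested. With macrophage, erythroid and melanoma marker scores in the model, 18 proteasome genes fell, and the share of all genes is not reported here for that model either. Summed S phase genes were 471.5 to 577.8 in cDKO against 610.2 to 1259 in wild type, without overlap, and 12 of 18 fell. G2 and M phase genes were 210.6 to 327.6 against 318.8 to 904.8, and 14 of 20 fell, where 6.85% of all genes did. With column set in the model 2 of 18 and 5 of 20 fell, where 3.58% of all genes did. The part of cell cycle gene levels in the proteasome result was not tested.

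**Figure D4:**
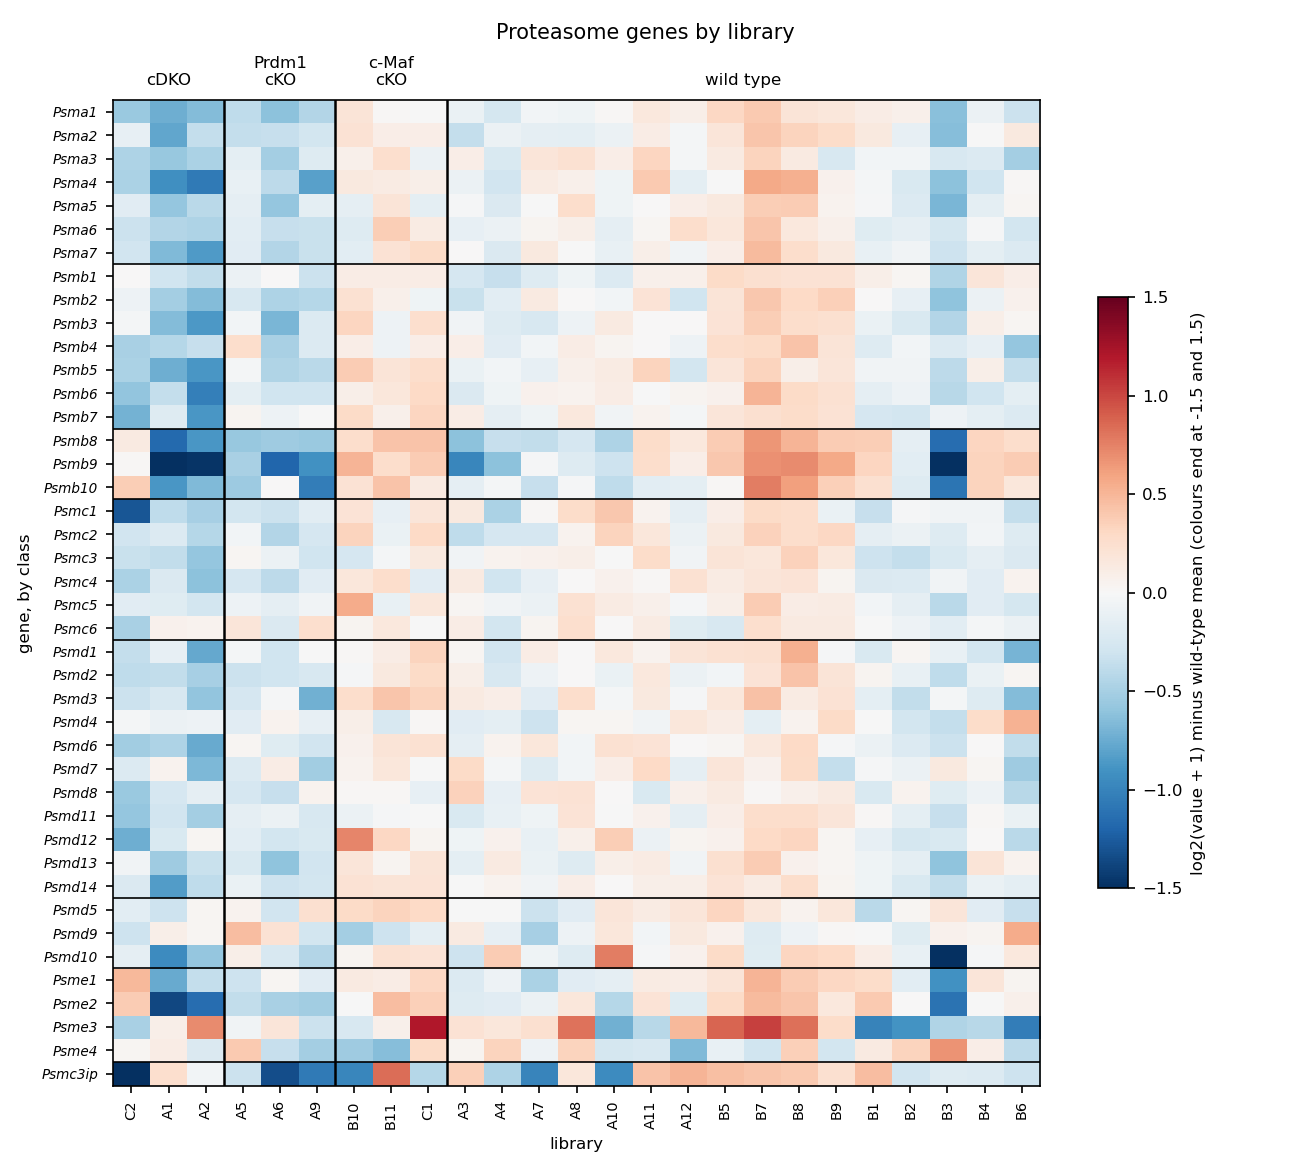
Each of the 42 genes (rows, by class) in each library (columns, by group from cDKO to wild type), as log2(value + 1) minus the wild-type mean of the gene; blue is lower, red higher, and colours end at -1.5 and 1.5. The cDKO and Prdm1 cKO columns are mostly blue in the core rows, whose medians are -0.65 to -0.39 and -0.44 to -0.14. In the inducible rows A1, A2 and wild-type B3 are dark blue and C2 is not. These colours are on the deposited scale. Rescaled to the CD3 genes, the medians of the 42 genes in both groups lie above 0, and those of all genes tested lie higher still.

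In the conditional knockout of Prdm1 alone no proteasome gene passed the test. By limma 0 of 42 genes were called in Prdm1 cKO against wild type, where 3.45% of all genes were; 12 had an unadjusted p under 0.05, against 20.6% of all genes. On the deposited scale fold changes were below 0 for 39 of 42 genes, against 51.6% of all genes, with a median of -0.25 (all genes -0.02). After rescaling to the CD3 genes 4 of the 42 lay below 0, and the median was 0.23 (all genes 0.37). The smallest adjusted p was that of Psma1, with 103.32, 88.24 and 99.81 in A5, A6 and A9 against a wild-type median of 139.44 (log2 fold change -0.48 ± 0.14; limma, adjusted p = 0.0562). All 3 of its Prdm1 cKO values lie in the lowest part of the wild-type range, where only B3 is below them. Without wild-type B3, 2 genes passed, and without both C2 and B3 4 did, but the share of all genes in these fits is not reported here. The 3 libraries were nearly even in Psmb8, at 252.68, 260.67 and 255.49, above the wild-type minimum of 170.58 and below the median of 435.98 (log2 fold change -0.55 ± 0.27; limma, adjusted p = 0.252). The sum of 8 CD8 T cell markers was 1511 to 1936 in this group and 1197 to 3411 in wild type, with medians of 1849 and 2562. Wild-type A3, A4, A7, A8 and A10 of set 1, with sums of 1660 to 2070, had Psmb8 from 245.45 to 315.56. The part of the marker level in Psmb8 was not tested. The 7 wild-type libraries of set 1 averaged 328 ± 79.4 for this gene, and with column set in the model its log2 fold change was -0.32. Psmb9 was 112.18, 68.74 and 83.22 (log2 fold change -0.86 ± 0.36; limma, adjusted p = 0.165) and Psmb10 was 44.61, 65.83 and 31.54 (-0.53 ± 0.27; limma, adjusted p = 0.26), so that these spread more widely. Leaving out A6 or A9 gave -0.79 or -0.27 for Psmb10. Among their counterparts, Psmb5 was 144.09, 107.78 and 111.36 (-0.29 ± 0.14; limma, adjusted p = 0.219) and Psmb6 was 145.41, 131.2 and 131.29 (-0.25 ± 0.14; limma, adjusted p = 0.342). A6 and A9 lie just below the lowest wild-type library in Psmb5, and all 3 lie inside the wild-type range in Psmb6. Psmb7, at 75.55, 69.59 and 72.96, lay around the wild-type median of 71.06 (-0.01 ± 0.13; limma, adjusted p = 0.978). The PA28 genes were 192.45, 245.05 and 213.18 for Psme1 (-0.15) and 182.03, 167.15 and 163.61 for Psme2 (-0.46), with adjusted p = 0.74 and 0.329 by limma. Macrophage markers summed to 1387 to 4196 in this group against 52.68 to 2374 in wild type; with marker scores in the model, 0 proteasome genes passed. Dendritic cell markers summed to 1673 to 6932 against 61.12 to 2854, although Clec9a was at 0 in all 3 libraries. Summed S phase genes were 457.2 to 594.6 against 610.2 to 1259, and 9 of 18 fell, where 1.87% of all genes did. With column set in the model 3 of 18 fell, where 0.302% of all genes did. The part of these levels in the proteasome values was not tested.

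In the libraries labelled as the conditional knockout of c-Maf alone no gene of any kind passed. By limma 0 of 42 proteasome genes and 0% of all genes passed in c-Maf cKO against wild type; 2 of 42 had an unadjusted p under 0.05, against 6.16% of all genes. The median log2 fold change was 0.14 (all genes 0.004), but it was -0.10 with column set in the model and -0.08 after rescaling to the CD3 genes (all genes -0.18). Psmb8 had 452.97, 506.15 and 507.52 in B10, B11 and C1, above the wild-type median of 435.98 (0.37 ± 0.27; limma, adjusted p = 0.828). Within set 2 the c-Maf cKO mean was 489 ± 31.1, below the 529 ± 50.4 of its 4 wild-type libraries, and the log2 fold change with column set in the model was -0.11. Psmb9 had 225.73, 189.17 and 206.21, and Psmb10 had 76.75, 88.65 and 72.5. Psmb5 had 192.36, 168.86 and 177.61, the highest group mean of this gene at 180 ± 11.9, against 169 ± 11.9 in wild type of set 2. Psmb6 had 171.36, 181.83 and 198.48, and Psmb7 had 89.33, 77.4 and 91.65. Psme1 had 262.46, 258.26 and 296.85, and Psme2 had 233.65, 324.02 and 300.43. All of these lie within the wild-type ranges but for B10 in Psmb5 and B10 and C1 in Psmb7.

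The double knockout was also compared with each single one; these comparisons share the cDKO libraries with the one above. Against c-Maf cKO, 16 of 42 genes fell in cDKO by limma, where 5.61% of all genes fell, with a median log2 fold change of -0.54 (all genes -0.01; 0.11 after rescaling to the CD3 genes, all genes 0.50). Psmb5 averaged 91.6 ± 13.3 in cDKO and 180 ± 11.9 in c-Maf cKO (SD, n = 3 each), a log2 fold change of -0.97 ± 0.18 (limma, adjusted p = 0.00164). Psmb7 averaged 49.3 ± 12.8 against 86.1 ± 7.65 (-0.82 ± 0.17; limma, adjusted p = 0.00408) and Psmb6 averaged 103 ± 23.4 against 184 ± 13.7 (-0.85 ± 0.19; limma, adjusted p = 0.00567). Psmd6, Psmd14 and Psma7 followed, with fold changes of -0.74, -0.69 and -0.72. The 2 groups stand in different column sets, and with column set in the model 0 of these genes passed (median -0.16), where 1.08% of all genes did. Against Prdm1 cKO, 0 of 42 genes passed by limma, where 0.392% of all genes did, and 5 had an unadjusted p under 0.05, against 12.6% of all genes. The median was -0.16, or -0.04 with column set in the model. Psmb7 was the gene with the largest fold change, 49.3 ± 12.8 in cDKO against 72.7 ± 2.99 in Prdm1 cKO (-0.58; limma, adjusted p = 0.12). Between Prdm1 cKO and c-Maf cKO 0 genes passed by limma, where 1.53% of all genes did, although 21 of 42 had an unadjusted p under 0.05, against 20.7% of all genes, and the median was -0.37 (-0.16 with column set in the model). Whether the cDKO difference exceeded the sum of those of the single knockouts was tested for each gene in the same fit, as a contrast added after the data were seen: 0 of 42 genes passed by limma, where 0.00816% of all genes did, and 5 had an unadjusted p under 0.05, against 11.7% of all genes. The median was -0.27 (all genes 0.003), and Psmb7 came closest (-0.81 ± 0.22; limma, adjusted p = 0.126). This contrast was fitted without column set, although each knockout group stands in its own set. With column set in the model the medians against wild type were -0.27 for cDKO, -0.25 for Prdm1 cKO and -0.10 for c-Maf cKO. The contrast therefore cannot separate an excess in cDKO from differences between the sets.

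The balance of inducible to constitutive subunit was followed by the ratio of each inducible gene to the one it replaces. The ratio of Psmb8 to Psmb5 was 1.9 to 3.91 in cDKO libraries, 1.75 to 2.42 in those of Prdm1 cKO, 2.35 to 3 in those of c-Maf cKO and 1.53 to 3.93 in wild type. That of Psmb9 to Psmb6 was 0.389 to 1.5 for cDKO, 0.524 to 0.771 for Prdm1 cKO, 1.04 to 1.32 for c-Maf cKO and 0.455 to 1.52 for wild type. That of Psmb10 to Psmb7 was 0.553 to 1.92 for cDKO, 0.432 to 0.946 for Prdm1 cKO, 0.791 to 1.15 for c-Maf cKO and 0.434 to 1.31 for wild type. Each knockout's range overlaps that of wild type, but 3 libraries lie outside it: C2 of cDKO is above every wild-type library in Psmb10 to Psmb7, A1 of cDKO is below every one in Psmb9 to Psmb6, and A9 of Prdm1 cKO is just below the lowest, at 0.432 against 0.434, in Psmb10 to Psmb7. None of the 9 comparisons with wild type passed an exact two-sided permutation test after adjustment. The lowest p were those of Prdm1 cKO, with a difference of mean log2 ratio of -0.62 for Psmb9 to Psmb6 (exact permutation p = 0.0547, adjusted p = 0.274) and -0.52 for Psmb10 to Psmb7 (exact permutation p = 0.0609, adjusted p = 0.274). Within column set 1 these differences were -0.37 and -0.34 (exact permutation p = 0.167 and 0.133). The smallest p that 3 against 16 libraries allow is 0.00103.

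Genes around the proteasome were followed in short lists, to be read against the 6.85% of all genes that fell in cDKO. Of 6 assembly factors of the core and its inhibitor, 3 fell in cDKO: Psmg2, which pairs with Psmg1 to assemble the alpha ring, averaged 16.51 in cDKO and 27.57 in wild type (log2 fold change -0.71 ± 0.17; limma, adjusted p = 0.00687). Pomp, the maturation factor that is consumed as the core closes, averaged 90.23 against 132.38 (-0.55 ± 0.15; limma, adjusted p = 0.0141), and Psmg3 averaged 11.02 against 16.27 (-0.52; limma, adjusted p = 0.0376). With column set in the model, 1 of the 6 fell. Of 7 accessory subunits, ubiquitin receptors and deubiquitinases, 1 fell: Shfm1, the small lid subunit also known as Sem1, at 119.1 against 159.2 (-0.42; limma, adjusted p = 0.00861), which did not pass with column set in the model (-0.33; limma, adjusted p = 0.0753). Of 11 ubiquitin, shuttle and p97 genes 1 rose, where 5.09% of all genes did, and 0 fell. Rps27a, which encodes ubiquitin fused to a ribosomal protein, averaged 1251.04 in cDKO and 933.17 in wild type (0.43 ± 0.10; limma, adjusted p = 0.00544). The polyubiquitin gene Ubb (0.26) did not pass, with adjusted p = 0.134 by limma; with column set in the model 5 of the 11 rose, where 4.39% of all genes did.

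Of 8 regulators of proteasome genes, 2 fell in cDKO: Irf8, an interferon-responsive factor, averaged 4.48 against 54.37 (-3.36 ± 0.44; limma, adjusted p = 6.61e-05) and Stat3 averaged 70.72 against 128.52 (-0.79 ± 0.23; limma, adjusted p = 0.021). With column set in the model Irf8 passed and Stat3 did not (-0.69; limma, adjusted p = 0.0808). Nfe2l1, which encodes NRF1 and drives proteasome genes when degradation is impaired, averaged 10.12 against 10.94 (-0.11; limma, adjusted p = 0.791). Irf1 (0.36) and Nlrc5 (0.01), which act downstream of interferon, did not pass, with adjusted p = 0.38 and 0.985 by limma; with column set in the model Irf1 was higher (0.88; limma, adjusted p = 0.00781). Of 13 genes of MHC class I presentation, 2 fell in cDKO, both chaperones of the endoplasmic reticulum: Calr averaged 83.86 against 145.25 (-0.76 ± 0.15; limma, adjusted p = 0.0017) and Pdia3 averaged 88.19 against 142.96 (-0.67 ± 0.14; limma, adjusted p = 0.00209). The class I genes B2m (-0.27), H2-K1 (-0.25) and H2-D1 (-0.15) did not pass. In Prdm1 cKO 1 of the 13 fell, Tap1, at 49.59 against 95.39 (-0.89 ± 0.22; limma, adjusted p = 0.0274), where 1.87% of all genes fell. It did not pass with column set in the model (-0.73; limma, adjusted p = 0.126), and in cDKO it averaged 67.64 (-0.49; limma, adjusted p = 0.171). In c-Maf cKO 0 genes of these lists passed by limma. The lists were small, and their genes' levels were measured in the same libraries as the proteasome genes.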

How the data were processed

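Each column of the deposited table holds a normalised signal per gene symbol, made by the authors; per the submitters' processing notes TopHat, RSEM, DESeq and the mouse build mm9 were used, while the scale of the values and the tools' versions and settings were not given in the sources used here. Columns were matched to groups by the genotype in their names, 0 columns stayed unmatched, and no 2 columns were identical. The members and lists were chosen with earlier results of these data known. Values were tested as log2(value + 1), which understates the change of low genes, in 1 limma 3.58.1 model (R 4.3.3) of all 25 libraries with trend and robust moderation, over the 12251 genes with a value of at least 1 in at least 3 libraries. P-values were adjusted by Benjamini-Hochberg over all of these genes and called under 0.05. The model was run on simulated data with independent normal spread and no column-set or single-library effects, so that run does not cover such effects. Levels are means ± SD, fold changes ± SE. Ratios used exact permutation tests, and correlations 1e+05 permutations (SciPy 1.17.1). Per-library values were given for the catalytic and PA28 genes and for up to 6 called genes per comparison with the smallest adjusted p; other genes, such as Psma6, Psmc1 and Psmd14, were named after their values were seen. Some genes of the pathway lists are not reported here. Promoters came from RefSeq (GRCm38.p6), searched on both strands. Alternatives changed the pseudocount, filter, scaling, covariates, moderation and libraries. Reads of some genes, such as Psme2, Psmb5 and Psmb6, can be shared with near-identical copies.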

Additional observations from a re-analysis of the deposited data

How the results depend on the processing

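No paired analysis was possible because the column names carry no replicate number. Leaving out 1 library at a time gave 4 to 23 called proteasome genes for cDKO against wild type, 0 to 2 for Prdm1 cKO against wild type, 6 to 21 for cDKO against c-Maf cKO and 0 to 1 for Prdm1 cKO against c-Maf cKO, and 0 throughout for the other 2 comparisons. Rescaling to the CD3 genes gave 0 and column set gave 6 for cDKO against wild type. For cDKO against c-Maf cKO these gave 0 and 0, the library letter 10, and only the compared groups 8. For Prdm1 cKO against wild type, a minimum value of 10 gave 1 and leaving out C2 and B3 gave 4. For Prdm1 cKO against c-Maf cKO, only the compared groups gave 3 and leaving out C2 and B3 gave 5. For most of these settings the share of all genes called is not reported here, so the counts do not single out the proteasome genes. The cause of these shifts was not tested. Other pseudocounts, no filter, median-of-ratios scaling, marker scores and plain moderation left each count within 1.5 times its value.

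With the CD3 scaling the log2 fold change against wild type changed sign in 21 of 42 genes for cDKO, 35 for Prdm1 cKO and 24 for c-Maf cKO, and with column set in 0, 0 and 25. Among the catalytic, PA28 and called genes, those that changed sign with the CD3 scaling were, in Prdm1 cKO, Psmb5 0.19, Psmb6 0.24, Psmb7 0.47 (0.036 with median-of-ratios scaling), Psme1 0.33 and Psme2 0.026. In cDKO against wild type they were Psmb10 0.034, Psme1 0.22, Psmd2 0.004 and Psma6 0.019, and against c-Maf cKO Psmd2 0.088, Psma3 0.067, Psma6 0.14 and Psmc4 0.12. In c-Maf cKO they were Psmb6 -0.036 and Psme1 -0.042. With column set, c-Maf cKO gave Psmb8 -0.11, Psmb9 -0.20, Psmb10 -0.18, Psmb6 -0.087, Psme1 -0.17 and Psme2 -0.068. With the library letter it gave Psmb9 -0.022, Psmb10 -0.002, Psme1 -0.094 and Psme2 -0.10. Leaving out 1 library moved Psmb7 in Prdm1 cKO between -0.038 and 0.02 and Psme1 in cDKO between -0.55 and 0.067.

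Ratio differences that changed sign within a column set were those of c-Maf cKO (Psmb8 to Psmb5 -0.19, Psmb9 to Psmb6 -0.12, Psmb10 to Psmb7 -0.18) and of cDKO (Psmb8 to Psmb5 -0.036). Leaving out 1 library moved them in cDKO from -0.22 to 0.30 (Psmb8 to Psmb5), from -0.88 to 0.082 (Psmb9 to Psmb6) and from -0.24 to 0.64 (Psmb10 to Psmb7), and in c-Maf cKO from -0.12 to 0.14 (Psmb10 to Psmb7). Depth is unknown, so no counting error could be given.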

Other observations

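Psme3, the gene of PA28 gamma, had values of 11.31, 17.35 and 27.25 in cDKO libraries and of 7.38 to 34 in wild type. In wild type it was 9.46 to 29.22 in column set 1, 19.83 to 34 in set 2 and 7.38 to 11.93 in set 3, so that sets 2 and 3 did not overlap. Its log2 fold change in cDKO was 0.11 without and 0.87 with column set in the model (limma, adjusted p = 0.91 and 0.102). Psmc3ip, which is no subunit, had values of 1.36, 9.19 and 7.32 in cDKO libraries. The Prdm1 cKO libraries had 5.84, 2.39 and 3.09 and the c-Maf cKO libraries 3.34, 14.21 and 5.33, against 3.28 to 11.14 in wild type, and C2 was the lowest of all 25 libraries.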
